A study of Mus musculus with 24 samples.

Results

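Clone 10 of the i12 recombination was compared with its own parental line in mouse embryonic stem cells. The comparison holds the 4 libraries whose table columns carry the names i12_rec10 (2 libraries) and i12_par (2 libraries), of 24 libraries, 12 groups and 5 recombinations in the series. All lines come from F121/9, a female F1 hybrid of a 129/Sv and a CAST/EiJ parent, and all were grown without serum in 2i+LIF, which is leukaemia inhibitory factor with an inhibitor of MEK (PD0325901) and one of GSK-3β (CHIR99021). The parental line is labelled a control and the other line a recombined clone. The labels do not say where the i12 recombination lies in the genome or what kind of rearrangement it is. Clone 10 is the single clone of i12 in the series, so whatever is particular to 1 clone and whatever belongs to the recombination cannot be told apart. Libraries with the same replicate number were paired, and the labels call the replicates biological duplicates.

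The study concerns contacts between the genome and the nuclear lamina, the protein meshwork under the inner nuclear membrane. Chromatin held at the lamina is mostly gene-poor and weakly transcribed, and moving a piece of chromosome can change which genes lie near it. In an F1 hybrid most genes carry sequence variants between their alleles, so reads over them can be assigned to the 129S1 or the CAST copy. The untouched copy in the same cells then serves as an internal control for an event on the other.

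Counts per library were 4123671 and 3829089 in the parental line and 6920899 and 4184703 in the clone, against 3286819 to 15581094 over the whole series. Leaving aside mitochondrial genes, 48.9% to 49.0% of counts came from the 129S1 copy in the 4 libraries, and 47.9% to 49.1% in the 20 others. All 8 markers of embryonic stem cells were detected in every i12 library, among them Pou5f1, Sox2 and Nanog, with a summed level of 3141 to 4825 CPM (counts scaled to a common effective library size) in the parental line and 3476 to 4834 in the clone. Of 8 fibroblast markers, Col3a1, Postn, Lum and Dcn had 0 counts in all 4 libraries, and the summed level of the list was 2041 and 3687 CPM in the parental line and 2372 and 3218 in the clone. At least 6 of the 7 markers of the 2-cell-like state that the table holds had 0 counts in each.

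The parental libraries stood apart on 4 chromosomes. For each chromosome the median over genes of the log2 ratio of 129S1 to CAST CPM was taken in each library, over 9999 genes that have reads from both copies. On chromosome 3 this median was -0.18 and -0.34 in the parental libraries, -0.02 and -0.04 in the clone, and -0.07 to 0.02 in 16 other libraries (those of d3 clone 21 and i7 clone 12 were left out). On chromosome 6 it was -0.24 and -0.33 in the parental line against -0.03 and -0.04 in the clone. Here and on chromosome 3 the parental line carried relatively more CAST RNA than the other lines. Chromosome 8 had 0.19 and 0.27 in the parental line and -0.03 and -0.06 in the clone, and chromosome 14 had 0.13 and 0.24 against -0.04 and -0.05. On these, the parental line carried relatively more 129S1 RNA. Both clone libraries lay within the range of the 16 other libraries on all 4 chromosomes, and neither parental library did.

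The change from parental line to clone on these chromosomes lay mostly in 1 copy each. On chromosome 3 the median log2 change within the replicate pairs was -0.15 (pair 1) and -0.25 (pair 2) in CAST CPM, and -0.0074 and -0.014 in 129S1 CPM. Chromosome 6 had -0.16 and -0.27 for CAST and 0.026 and 0.016 for 129S1. On chromosome 8 the pairs had -0.21 and -0.32 in 129S1 CPM and 0.0058 and 0.012 in CAST CPM. On chromosome 14 they had -0.13 and -0.28 in 129S1 CPM, and 0.018 and -0.010 in CAST CPM. Pair 2 had the larger change in the shifted copy on all 4 chromosomes. In total CPM the pairs had -0.076 and -0.13 (chromosome 3), -0.080 and -0.13 (6), -0.12 and -0.13 (8) and -0.070 and -0.14 (14). Over the 16 remaining chromosomes, the median ratio of the clone libraries minus the parental mean was on average 0.06 at most in either direction. The largest was chromosome 18, where the parental libraries (-0.103 and -0.145) lay below the lowest of the 16 other libraries (-0.101), the first only just. Within the pairs its ratio changed by 0.079 and 0.044. Both clone libraries lay above the 16 other libraries on chromosome 1 (-0.033 and -0.014 against at most -0.041). They also did on chromosome 11 (-0.00049 and -0.00043 against at most -0.0046). On chromosomes 3, 6, 8 and 14 the shift ran along whole chromosomes. In bins of 10 Mb the median ratio was lower in the clone in 13 of 13 bins of chromosome 8 and 12 of 12 of chromosome 14, and higher in 15 of 15 bins of chromosome 6 and 15 of 16 of chromosome 3. These values describe the libraries, since an exact permutation test of 2 against 2 cannot go below a two-sided p of 0.33. The shift was not tested as a cause of any gene's change, and each gene named below is given with its chromosome.

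**Figure D1:**
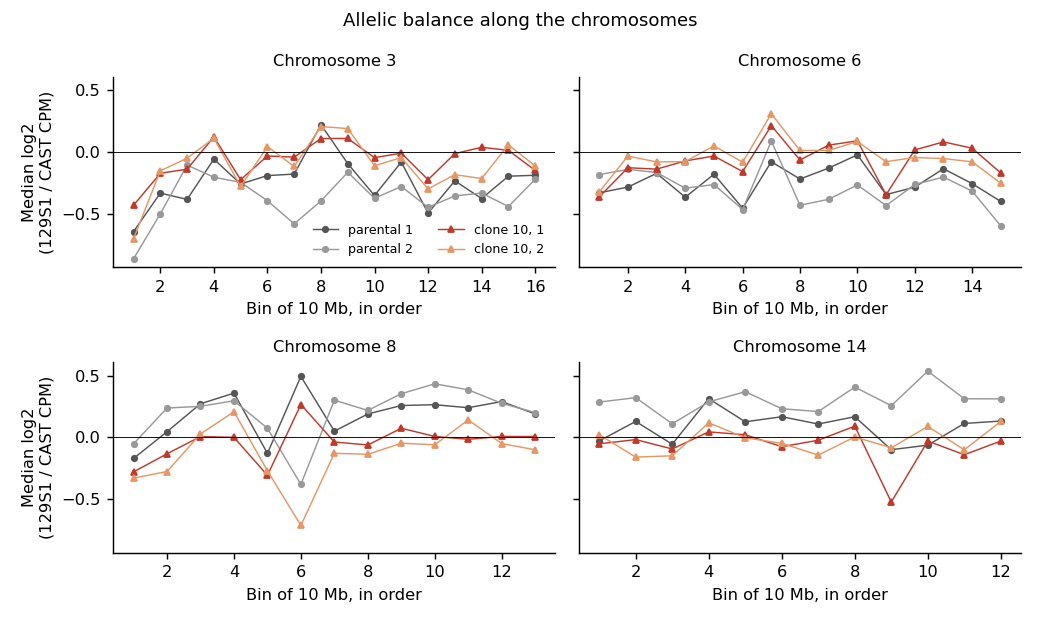
Median log2 ratio of 129S1 to CAST CPM in consecutive bins of 10 Mb along chromosomes 3, 6, 8 and 14, 1 line per i12 library. The parental lines mostly lie below the clone lines on chromosomes 3 and 6 and above them on 8 and 14, and the median change per bin of chromosome 8 runs from -0.43 to -0.21.

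Genes were tested with edgeR's quasi-likelihood test in fits of all 24 libraries, and called at a Benjamini-Hochberg adjusted p under 0.05 over all genes tested. The paired fit holds, in addition, the replicate number within each recombination as a block. In total counts, both copies added, 0 of 16253 genes were called (0%) in edgeR, with 213 at an unadjusted p under 0.05 (1.31%). The paired fit also called 0, with 959 at an unadjusted p under 0.05 (5.9%), and DESeq2 called 0 with 137. A paired fit of the 4 i12 libraries alone called 144 of 12780 genes in edgeR, and 0 without the block. With the block these 4 libraries leave almost no residual degrees of freedom, so the 144 calls have little estimate of spread behind them. In 129S1 counts 1 of 13919 genes was called in either fit (0.00718%), and in the 129S1 to CAST ratio 1 of 10795 in either fit (0.00926%). This was the same gene, Rbm25. In CAST counts 0 of 13951 genes were called without pairing (0%, with 249 or 1.78% at an unadjusted p under 0.05) and 1 in the paired fit (0.00717%), which was Plxnb1.

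Rbm25 encodes an RNA-binding protein that associates with the U1 small nuclear ribonucleoprotein and takes part in the choice of splice sites. The gene (ENSMUSG00000010608.15) lies on chromosome 12 from 83631236 to 83683123 on the plus strand (GRCm38). Its 129S1 copy had 475 and 420 counts in the parental libraries and 31 and 18 in the clone libraries. Its CAST copy had 677 and 597 counts in the parental line and 1352 and 717 in the clone, which was sequenced more deeply. The 129S1 copy was thus nearly absent from the clone while the CAST copy was not.

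In CPM of 129S1 counts, Rbm25 was at 217 ± 9.04 in the parental line and 8.63 ± 0.464 in the clone (SD, n = 2 each), and between 163 and 225 in the 20 other libraries. It fell by 4.64 on the log2 scale (SE 0.18, edgeR adjusted p = 1.6e-11). The 129S1 share of Rbm25 counts was 41.2% and 41.3% in the parental line (95% Wilson intervals 38.4% to 44.1% and 38.3% to 44.4%), and 2.24% and 2.45% in the clone (1.58% to 3.16% and 1.55% to 3.84%). No other library of the series had a share under 37.7%, and the highest was 44.7%. The ratio fell by 4.87 (SE 0.13, edgeR adjusted p = 3.1e-15).

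The CAST copy of Rbm25 had 320 ± 10.5 CPM in the parental line and 373 ± 39.2 in the clone, a log2 change of 0.22 with a 95% interval of -0.10 to 0.54 that did not pass the test (edgeR adjusted p = 1). Total Rbm25 was 274 and 259 CPM in the parental libraries and 201 and 173 in the clone libraries. The change in total counts was -0.51 (SE 0.14, unadjusted p = 0.00179), and it was not called in either fit (edgeR adjusted p = 1, and 0.44 in the paired fit). Both clone libraries lay below both parental libraries in total CPM, as 10.2% of all genes tested did, and the lowest of the 20 other libraries was at 195 CPM. With the i10 parental line in place of the i12 one, the 129S1 change was -4.52 and the ratio change -4.77, both called (edgeR adjusted p = 2.5e-11 and 4.9e-15).

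**Figure D2:**
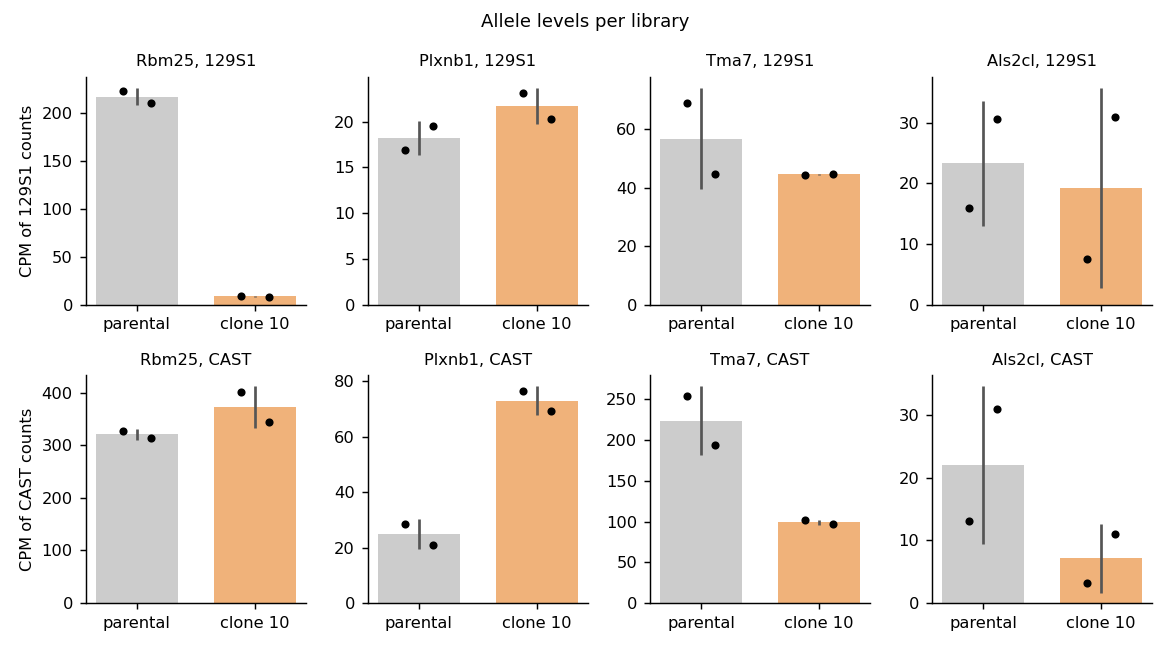
CPM of 129S1 counts (top) and CAST counts (bottom) of Rbm25, Plxnb1, Tma7 and Als2cl in each i12 library (dots), with the group mean (bars, from 0) and SD (lines, n = 2). For Rbm25 the 129S1 bar drops from 217 to 8.63, for Plxnb1 the CAST bar rises from 24.8 to 73.0, and the CAST values of Als2cl spread widely within each line.

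The genes beside Rbm25 on chromosome 12 were read in the same way. Within 1 Mb, 19 other genes had enough reads from both copies for the ratio, with a median change of -0.11, and 0 were called. An antisense RNA, Gm29361 (83631834 to 83633833, minus strand), lies over the first part of Rbm25. It had 5 and 6 counts from the 129S1 copy in the parental line and 0 in both clone libraries, and 10 and 12 against 22 and 16 from the CAST copy. A count of 0 allows up to 3 counts, and how strand was used in counting is not given in the sources used here, so reads of Gm29361 and of Rbm25 cannot be told apart. Zfyve1, which lies upstream of Rbm25, had 129S1 shares of 61.3% and 59.5% in the parental line and 49.7% and 52.4% in the clone (log2 ratio change -0.56, edgeR adjusted p = 0.86).

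On chromosome 9 the CAST copy of Plxnb1 rose in the paired fit. The genes around Tdgf1, which encodes the nodal co-receptor Cripto, were examined because clones of other recombinations in the series differ from their parental lines there. Plxnb1 (ENSMUSG00000053646.13, 109095389 to 109119917, plus strand) encodes plexin B1, a receptor for semaphorin 4D. Tma7 (109074568 to 109082587, minus strand) encodes a small protein named for its yeast relative, a translation machinery-associated factor, and Als2cl (110879870 to 110900530, plus strand) a relative of the Rab5 regulator alsin. RefSeq windows of 300 bases at their starts (GRCm38.p6) are printed because these genes have the smallest p for CAST counts in the region in the paired fit, with CG dinucleotides in capitals. The RefSeq start differs from the annotation used for positions here. The Als2cl window, the first of 2 that RefSeq gives for it, lies inside the gene as given above, and so does most of the Tma7 window, while most of the Plxnb1 window lies upstream of its gene.

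Plxnb1: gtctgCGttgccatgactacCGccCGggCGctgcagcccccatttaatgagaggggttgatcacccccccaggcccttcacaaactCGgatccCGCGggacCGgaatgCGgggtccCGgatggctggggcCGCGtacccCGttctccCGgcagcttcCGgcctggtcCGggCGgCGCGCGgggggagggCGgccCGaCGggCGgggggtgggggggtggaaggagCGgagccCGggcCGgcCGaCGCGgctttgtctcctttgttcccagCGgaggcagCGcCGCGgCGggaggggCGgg
Tma7: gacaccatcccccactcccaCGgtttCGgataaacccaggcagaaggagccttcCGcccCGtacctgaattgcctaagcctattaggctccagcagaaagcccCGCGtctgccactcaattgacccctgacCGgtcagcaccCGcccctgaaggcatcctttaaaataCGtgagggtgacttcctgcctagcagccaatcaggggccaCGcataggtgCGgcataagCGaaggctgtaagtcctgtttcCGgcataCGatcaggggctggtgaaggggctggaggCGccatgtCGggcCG
Als2cl: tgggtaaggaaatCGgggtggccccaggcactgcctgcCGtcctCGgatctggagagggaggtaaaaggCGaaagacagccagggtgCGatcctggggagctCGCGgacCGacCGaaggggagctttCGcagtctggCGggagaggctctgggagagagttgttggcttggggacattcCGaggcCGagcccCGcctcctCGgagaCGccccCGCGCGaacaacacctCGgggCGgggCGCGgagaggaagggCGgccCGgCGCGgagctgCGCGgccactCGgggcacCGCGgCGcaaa

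The Plxnb1 window (chr9:109095186-109095485, plus strand) holds 36 CG, the Als2cl window (chr9:110879924-110880223, plus strand) 33 and the Tma7 window (chr9:109082332-109082631, minus strand) 17. Of 32851 such windows in the genome, with a median of 7 CG, 6.23%, 8.56% and 31.41% hold at least as many. All 3 windows hold more CG than the median, and none of the deposited values bears on their methylation.

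Plxnb1 had 59 and 40 CAST counts in the parental libraries and 259 and 144 in the clone libraries. Its 129S1 copy had 36 and 39 counts in the parental line and 80 and 44 in the clone. In CPM, CAST rose from 24.8 ± 5.37 to 73.0 ± 5.25 (SD, n = 2 each), above the 16.1 to 29.7 of the 20 other libraries, and 129S1 was 16.9 and 19.6 against 23.1 and 20.3. The CAST change was 1.56 in both fits. It was called in the paired fit (SE 0.23, edgeR adjusted p = 0.033) and not in the unpaired one (SE 0.27, edgeR adjusted p = 0.28). Leaving out any 1 of the 4 libraries gave 1.35 to 1.80 in the unpaired fit, and this was not tried in the paired fit. The 129S1 change was 0.26 (SE 0.33), and the ratio changed by -1.30 (SE 0.24, edgeR adjusted p = 0.083). Against the i10 parental line the ratio of Plxnb1 fell, and was called (edgeR adjusted p = 0.0060).

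Tma7 lies upstream of Plxnb1, with Ccdc51 between them. It had 524 and 370 CAST counts in the parental line and 343 and 202 in the clone. That is 254 and 194 CPM against 102 and 97.2, where the 20 other libraries ran from 192 to 519. The clone libraries had the lowest CAST levels of Tma7 in the series, and they lay apart from the parental ones, as 21.9% of all genes tested do in CAST CPM. The CAST change was -1.17 (SE 0.22 in the paired fit, unadjusted p = 4.9e-05) and was not called (edgeR adjusted p = 0.17, and 1 without pairing). The 129S1 copy was at 69.1 and 44.6 CPM in the parental line and 44.5 and 44.7 in the clone, and these overlap. Ccdc51 encodes a protein of the mitochondrial inner membrane and overlaps the start of Tma7 on the other strand, so reads at the overlap cannot be told apart. It had 16 and 16 CAST counts in the parental line and 33 and 30 in the clone, a paired change of 0.56 (SE 0.35).

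Als2cl had 27 and 59 CAST counts in the parental line and 11 and 23 in the clone, which is 13.1 and 30.9 CPM against 3.26 and 11.1. The lines do not overlap, but in each line replicate 2 was more than 2 times as high as replicate 1. The paired change was -1.68 (SE 0.33, unadjusted p = 7.6e-05) and was not called (edgeR adjusted p = 0.21), and leaving out 1 library moved the unpaired value between -2.74 and -0.95. The 129S1 copy had 34 and 61 counts against 26 and 67, with a change of -0.33 (SE 0.59). The 129S1 share was 55.7% and 50.8% in the parental line and 70.3% and 74.4% in the clone.

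Tdgf1 itself (110939603 to 110946158, minus strand) had 1019 and 1587 CPM in total in the parental line and 944 and 1235 in the clone. The values overlap, and the change in the unpaired fit was -0.26 (SE 0.42, edgeR adjusted p = 1). The paired fit gave -0.24 (SE 0.12, edgeR unadjusted p = 0.057, adjusted p = 0.85), and within each replicate pair the clone was lower. In the unpaired fit the Tdgf1 change was -0.54 without parental replicate 1 and 0.096 without parental replicate 2. Each of these leaves 1 clone library without its pair. Its 129S1 share stayed between 62.2% and 66.2% in the 4 libraries, with a ratio change of 0.09 (SE 0.22). Between Tma7 and Tdgf1, Cdc25a, a phosphatase that drives cell cycle entry, had a total change of 0.11 (SE 0.18) and Smarcc1, a core subunit of BAF chromatin remodellers, 0.12 (SE 0.22). In the paired fit these were 0.10 (SE 0.12) for Cdc25a and 0.14 (SE 0.13) for Smarcc1. Without pairing, Smarcc1 ran from 0.49 without parental replicate 1 to -0.17 without parental replicate 2. Cdc25a ran from -0.085 without clone replicate 1 to 0.28 without clone replicate 2.

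Within 1 Mb of Tdgf1, 29 of 64 annotated genes had enough counts to be tested, and 42 of 113 within 2 Mb, the wider window having been chosen after the values were seen. In CAST counts 34 genes of the wider window were tested in the paired fit. Their median change was -0.06, against 0.00 over all genes tested. At an unadjusted p under 0.05, 1 of them was higher (Plxnb1) and 4 were lower (Shisa5, Atrip, Tma7 and Als2cl), where 2.3% and 3.5% of all genes were. Of these only Als2cl lies within 1 Mb. The others entered with the widening of the window, so these counts are no test of the region. Shisa5 and Atrip lie next to Tma7 on the side away from Plxnb1, with changes of -0.44 and -0.58. In 129S1 counts, 0 of 35 were higher and 1 was lower, which was Ptpn23, where 2.22% and 3.47% of all genes were. No gene other than Plxnb1 was called in this window in any of the 8 fits.

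**Figure D3:**
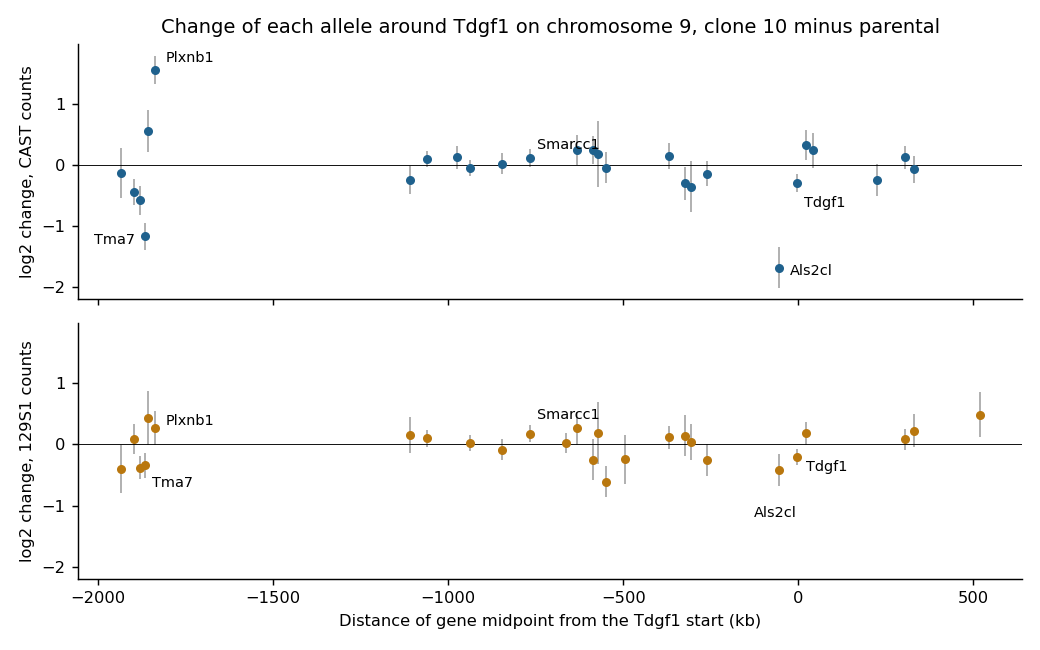
Log2 change of CAST counts (top) and 129S1 counts (bottom) from parental line to clone in the paired fit, against the distance of each gene's midpoint from the Tdgf1 start. Points are genes with at least 40 counts of that copy over the 4 libraries, lines are SEs. Plxnb1 (1.56), Tma7 (-1.17) and Als2cl (-1.68) leave the zero line for CAST and stay nearer to it for 129S1.

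The 10 genes with the smallest p in total counts in the paired fit were taken from the genes that averaged 50 counts or more and whose lines did not overlap, as those of 19.7% of all genes tested did not. They are Rbm25, Plxnb1, Tma7, Evc, Gm15726, Vps4a, Nes, Oas1b, Rcbtb1 and Msmo1, and none was called. Evc (chromosome 5, 37289098 to 37336894) encodes a ciliary protein of Hedgehog signalling. It was at 13.1 and 24.2 CPM in the parental libraries and 4.51 and 8.25 in the clone libraries, a change of -1.54 (SE 0.27, edgeR adjusted p = 0.22). Its partner in the same complex, Evc2, lies beside it in the opposite orientation and was named after its values were seen. Evc2 was at 11.7 and 16.8 CPM against 2.77 and 5.19, a change of -1.87 (SE 0.33, edgeR adjusted p = 0.22). For both genes the parental libraries were the highest of the series, since the 20 others ran from 0.410 to 11.8 CPM for Evc and from 1.02 to 6.04 for Evc2. Against the i10 parental line the changes were -0.49 and -0.03.

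Vps4a, an ATPase of the ESCRT membrane machinery on chromosome 8, was at 22.1 and 23.2 CPM in the parental line and 14.3 and 12.7 in the clone, a paired change of -0.74 (SE 0.17). On chromosome 8 the parental line carried relatively more 129S1 RNA (above), and against the i10 parental line the change of Vps4a was -0.22. Nes, which encodes the intermediate filament protein nestin, was at 46.6 and 68.3 CPM against 34.6 and 41.3, and Rcbtb1 at 49.7 and 64.8 against 35.1 and 43.4. They lie on chromosomes 3 and 14. Oas1b, of the oligoadenylate synthetase family, was at 45.2 and 53.6 CPM in the parental line and 59.4 and 85.8 in the clone, with the clone inside the 61.8 to 92.0 of the other libraries only for its second replicate. Gm15726, an antisense RNA of the X chromosome, was at 9.04 and 3.83 CPM against 20.2 and 12.7, all from CAST counts. Msmo1, which removes a methyl group in sterol synthesis and lies on chromosome 8, was at 190 and 223 CPM against 133 and 159.

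For the allelic ratio, 33.8% of all genes tested had lines that did not overlap. Of the 569 genes at an unadjusted p under 0.05 (5.27%), 281 (49.4%) lay on chromosomes 3, 6, 8 and 14, which hold 18.4% of the genes tested. On these chromosomes 14.2% of genes passed that threshold, and on the others 3.27%. The 10 genes named by the same rule were Rbm25, Plxnb1, Mrpl53, Pmf1, Ska3, Gm42688, Cenpm, Armc6, Gm32885 and Zfp639, and 6 of the 10 lie on the 4 chromosomes. Mrpl53, a protein of the mitochondrial ribosome on chromosome 6, had 129S1 shares of 36.2% and 36.7% in the parental line and 53.3% and 50.8% in the clone, a ratio change of 0.95 (SE 0.17, edgeR adjusted p = 0.083). Gm42688 overlaps it on the same strand, and their reads cannot be told apart. Pmf1 and Ska3 encode kinetochore proteins. Pmf1 on chromosome 3 had shares of 46.3% and 43.5% against 55.8% and 60.0%, and Ska3 on chromosome 14 had 56.6% and 52.98% against 43.3% and 38.6%. All 20 other libraries lay above the parental line for Pmf1 (up to 60.4%) and below it for Ska3 (up to 50.4%).

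Off those chromosomes, the kinetochore gene Cenpm on chromosome 15 had 129S1 shares of 48.8% and 43.3% in the parental line and 60.4% and 61.2% in the clone (ratio change 0.85, SE 0.19, edgeR adjusted p = 0.28). The clone shares lay within the 50.5% to 61.4% of the 20 other libraries and the parental shares below them. Gm32885, a long noncoding RNA of chromosome 15, had 11.3% and 5.58% against 2.82% and 4.86% (-1.39, SE 0.32, edgeR adjusted p = 0.38). Without parental replicate 2 its change was -1.83 and called (edgeR adjusted p = 0.035). Armc6 on chromosome 8 and Zfp639 on chromosome 3 had changes of -1.33 and 1.18.

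Genes of known roles were then read by list. None of the members was called in total counts in either fit, and Rbm25 was the one member called for its ratio. Core and naive pluripotency genes had a median change of 0.09 over 14 tested (0.00 over all genes), with Pou5f1 at -0.09 (SE 0.27) and Nanog at 0.05 (SE 0.18). In the paired fit 1 of the 14 was higher at an unadjusted p under 0.05 (Nr0b1, a nuclear receptor of the ground state) and 1 lower (Fgf4, a ligand of the FGF pathway), where 2.47% and 3.43% of all genes were. Nr0b1 was at 33.6 and 14.03 CPM in the parental line and 42.5 and 20.5 in the clone, and Fgf4 at 99.2 and 134 against 84.9 and 104. For both genes the lines overlap, and within each replicate pair Nr0b1 was higher and Fgf4 lower in the clone.

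Targets of Wnt signalling, which the GSK-3β inhibitor in the medium switches on, had a median of 0.47 over 9 tested. In the paired fit 3 of the 9 were higher at an unadjusted p under 0.05 and 0 lower (2.47% and 3.43% of all genes), and the members ran from -1.52 to 0.82 in the unpaired fit. Znrf3, a ubiquitin ligase that removes Frizzled receptors, was at 14.04 and 15.04 CPM against 20.2 and 20.3, a change of 0.48 (SE 0.19, edgeR adjusted p = 0.79). Axin2, a scaffold of the β-catenin destruction complex, was at 36.2 and 10.5 CPM in the parental line and 47.0 and 17.0 in the clone, and Notum, which deacylates Wnt ligands, at 13.3 and 4.33 against 22.0 and 8.96. For Axin2 and Notum replicate 1 was the higher in each line and the lines overlap. In the nodal pathway 2 of 11 were higher and 1 was lower by the same count, again beside 2.47% and 3.43% of all genes. Lefty1 and Lefty2 encode secreted nodal inhibitors. Lefty2 was at 476 and 230 CPM in the parental line and 469 and 526 in the clone (0.58 in the paired fit, SE 0.25), so the difference lay in replicate 2. Lefty1 was at 25.0 and 14.3 CPM against 28.2 and 35.1, and the receptor gene Acvr2b at 3.81 and 6.12 against 2.62 and 3.54.

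Proteins of the lamina and inner nuclear membrane are the structures the study is about. All 12 of their genes were tested, with a median change of 0.05. In either fit 0 had an unadjusted p under 0.05, where 1.31% (unpaired) and 5.9% (paired) of all genes had. Lmnb1 changed by 0.23 (SE 0.28), Lmna by 0.09 (SE 0.23) and Lbr, the lamin B receptor, by -0.09 (SE 0.22). Of the 12 genes of the U1 particle and its associated splicing factors, Rbm25 alone had an unadjusted p under 0.05 in total counts. The same shares of all genes stand beside this, and the median was -0.01. Sterol synthesis genes had a median of -0.10 over 18, and 4 were lower in the paired fit at an unadjusted p under 0.05, where 3.43% of all genes were. These were Cyp51 (270 and 282 CPM against 233 and 215), Lss (198 and 206 against 176 and 160), Dhcr7 (121 and 129 against 91.4 and 108) and Msmo1. All 4 were lower in both clone libraries than in both parental ones, as 10.2% of all genes tested were, and their changes ran from -0.27 to -0.51 with no call. Against the i10 parental line they were -0.016 for Cyp51, 0.050 for Lss, -0.023 for Dhcr7 and 0.019 for Msmo1. p53 targets had a median of -0.29 over 12. Eda2r alone of them had an unadjusted p under 0.05 in the paired fit, where 5.9% of all genes had.

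**Figure D4:**
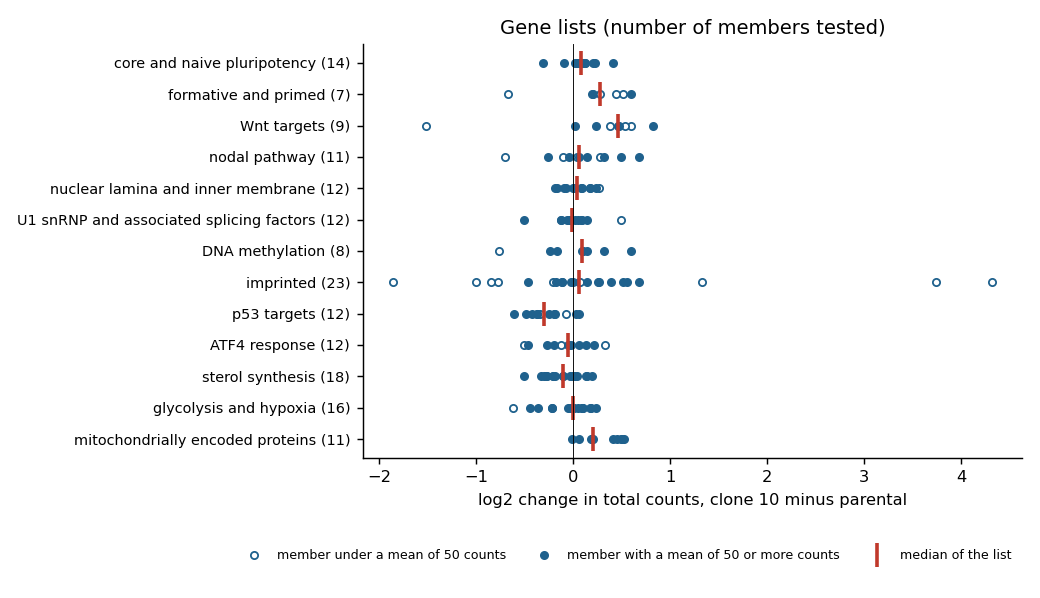
Log2 change in total counts from parental line to clone for each tested member of 13 gene lists, filled where the 4 libraries had a mean of 50 or more counts, with list medians in red. Medians lie between -0.29 (p53 targets) and 0.47 (Wnt targets), and the members beyond 1 in either direction all had under 50 counts.

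The i12 changes were last set against those of the 6 other clones relative to their own parental lines, with recombinations weighted equally, in the same fits. In total counts 0 of 16253 genes differed (0%) by edgeR's test, with 220 at an unadjusted p under 0.05 (1.35%), and 0 in the paired fit with 986 (6.07%). In 129S1 counts 2 genes differed (0.0144%), Rbm25 among them. In CAST counts 4 differed (0.0287%), and 6 in the paired fit (0.043%), with Plxnb1 among the 6. In the ratio 44 of 10795 genes differed (0.408%), of which Rbm25 was the one also called in i12 alone. The other clones here include d3 clone 21 and i7 clone 12, which were left out of the chromosome ranges above. With their libraries, the lowest median log2 ratio among the other libraries was -5.58 on chromosome 14 and -0.96 on chromosome 19. A difference can thus lie in the other clones rather than in clone 10, and for the genes not called in i12 this was not tested. Rbm25 differed by -4.63 (SE 0.19) in 129S1 counts and by -4.87 (SE 0.14) in the ratio. Plxnb1 differed by 1.48 (SE 0.26) in CAST counts in the paired fit.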

How the data were processed

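RNA-seq counts of 24 libraries were used, and the 4 of i12 are described. The members, gene lists and naming rules were chosen with earlier results of these data known. Per the labels, libraries were made from mRNA with a stranded kit and sequenced on a NextSeq. The authors deposited raw counts per gene with 129S1 and CAST columns for each library. STAR, SAMtools and mm10 are named in the submitters' processing notes, and the counting program and its use of strand are not given in the sources used here. Of 48985 gene identifiers, 48838 matched GENCODE M21 (GRCm38), whose positions are printed. The table has 0 columns that were not used.

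edgeR 4.0.16 (R 4.3.3) was run with TMM, filterByExpr and the quasi-likelihood test on all 24 libraries, on summed, 129S1 and CAST counts, with 12 residual degrees of freedom. The ratio fit used genes averaging 10 or more counts per copy and a coefficient per library. The paired fit has the replicate number within each recombination as a block, which leaves 7 residual degrees of freedom. Pairing was set by the comparison's definition. The difference between replicates 1 and 2 correlated between the i12 lines with r = 0.57 over 16253 genes, which are not independent replicates. Between i12 and i10 lines r was 0.50 to 0.58, so this shared difference was not particular to the i12 lines. Pairing lowered the common coefficient of variation from 0.246 to 0.119. Chromosome medians used log2(CPM + 0.5) of genes with a 129S1 share of 20% to 80%. Wilson intervals (95%) and the 3 counts that a count of 0 allows reflect counting error only, as the labels describe no molecular identifiers. Genes were named if called in any fit (at most 10), by the 2 rules of smallest p given with them, by lying within 1 Mb of Tdgf1 or by membership of a list. Others are said to have been chosen after their values were seen, as were Gm29361, Zfyve1, Shisa5, Atrip and Ptpn23. Some genes are not reported here. The tests were tried on simulated counts. DESeq2 1.42.0 served as an alternative, and descriptive steps used pandas 2.3.3, numpy 2.4.6, matplotlib 3.10.9 and scipy 1.17.1 under Python 3.11.15. P-values measure the spread between labelled biological duplicates.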

Additional observations from a re-analysis of the deposited data

Results flagged for a closer look

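These 3 values differed between recombinations by a test of the difference itself. The change of Rbm25 in 129S1 counts in clone 10 differed from the mean of the 6 other clones by -4.63 on the log2 scale (SE 0.19, edgeR adjusted p = 4.3e-11). Its change of the ratio differed by -4.87 (SE 0.14, edgeR adjusted p = 1.0e-14). The change of Plxnb1 in CAST counts in the paired fit differed by 1.48 (SE 0.26, edgeR adjusted p = 0.038), and without the pairing by 1.48 with no call (edgeR adjusted p = 0.24).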

How the results depend on the processing

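Rbm25 was called in 129S1 counts and in the ratio under every alternative run for them, with changes of -4.70 to -4.52 and -4.91 to -4.77. In CAST counts 1 gene (Plxnb1) was called with the replicate block and 0 without it at the same filter, and the block changed no other call of a gene named here. With 2 replicates per line, leaving out 1 assumes that the lone sample varies like the other groups. The fits that left out 1 library had no replicate block, so they do not bear on the paired call of Plxnb1. Leaving out 1 i12 library called 1 to 2 genes in the ratio (the second, without parental replicate 2, was Gm32885) and 19 to 26 in the ratio against the other clones, where 44 were called with all libraries. It moved the change in total counts of chromosome 14 between -0.15 and -0.078, of chromosome 6 between -0.13 and -0.064, of chromosome 8 between -0.15 and -0.077 and of chromosome 3 between -0.12 and -0.080, the first value of each being without parental replicate 1 and the second without parental replicate 2. The ratio change of chromosome 8 ran between -0.30 and -0.24. For chromosome 14 in total counts, RLE size factors gave -0.11 and genes averaging 50 counts or more -0.10. These chromosome values are clone libraries minus the mean of the parental libraries, not changes within pairs. Without a filter on low counts 4 genes were called in total counts (Gadd45g, Gm42418, AY036118 and CT010467.1), 4 in 129S1 counts (Rbm25, Gadd45g, Gm42418 and CT010467.1) and 3 in CAST counts (Plxnb1, Tma7 and AY036118). The 4 i12 libraries alone gave 144 calls in total counts with a replicate block and 0 without, and 3 in the ratio (Rbm25, Gm42418 and CT010467.1). With the i10 parental line, an alternative chosen after seeing the data, 3 genes were called in 129S1 counts (Rbm25 and Smarcc1 among them) and 5 in the ratio (Rbm25, Smarcc1, Plxnb1 and Tatdn2 among them). It turned the sign of total changes of Oas1b (-0.16), Msmo1 (0.019) and Stk31 (-0.14) and of ratio changes of Mrpl53 (-0.12), Zfp639 (-0.11) and Zfyve1 (0.13). In each of these the cause was not tested. Of 460 values of named genes under alternatives, 30 changed sign between values whose unadjusted p was 0.05 or more in both fits, and these were not counted as reversals. Leaving out chromosomes 3, 6, 8 and 14, tried for the unpaired fits of clone against parental line alone, changed no count of calls. None of the genes called in those fits lay on these chromosomes, so it could not remove a call.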

Other observations

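Of 8 germline markers, 6 were tested in total counts, with a median change of 0.31 and members from -0.73 to 1.37. The highest, Stk31, was the one with an unadjusted p under 0.05, where 1.31% (unpaired) and 5.9% (paired) of all genes had. Stk31, a kinase gene of the germline on chromosome 6, had 6 and 6 counts in the parental libraries and 28 and 15 in the clone libraries. Its total change was 1.37 (SE 0.42, edgeR adjusted p = 1), and the 20 other libraries ran from 3.14 to 14.7 CPM, above the parental 1.43 and 1.53. Protein-coding genes of the mitochondrial genome had a median change of 0.21 in total counts over 11 tested, with 2 of them (mt-Nd1 and mt-Cytb) higher at an unadjusted p under 0.05 in the paired fit, where 2.47% of all genes were higher and 3.43% lower. Mitochondrial genes held 3.29% and 5.12% of counts in the parental line and 3.84% and 5.51% in the clone, so that replicate 2 was the higher in each line. Of 23 imprinted genes tested, 3 were higher and 2 lower in the paired fit at an unadjusted p under 0.05, beside the same 2.47% and 3.43% of all genes. Plagl1, a zinc finger gene of this group, was at 166 and 102 CPM against 190 and 162 (0.42 in the paired fit, SE 0.13, edgeR adjusted p = 0.65), with 129S1 shares of 81.8% and 79.6% against 77.1% and 74.5%.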
